A study of Mus musculus with 8 samples.

Results

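The 9 interferon-stimulated genes Ifit1, Ifit2, Ifit3, Ifi44, Isg15, Irf7, Irf9, Oasl2 and Bst2 were taken by symbol from a table of 32499 genes, and all 9 symbols were present. RNA-seq was run on neural progenitor cells taken from the neural tube of C57BL/6 mouse embryos at embryonic day 14. Of its 8 libraries, 4 carry the label 53BP1 KO (KO-labelled) and 4 the label control. The product of Trp53bp1, 53BP1, binds chromatin at DNA double-strand breaks and steers their repair. The KO-labelled embryos had mothers with the targeted allele Trp53bp1tm1Jc and fathers with an in-frame CRISPR deletion in the same gene, and wild-type embryos served for comparison, per the labels' protocols. Cells were sorted with the dye NeuroFluor CDr3, which binds the radial glial protein Fabp7, and the labels do not say whether the cells of a library were also cultured, nor whether libraries came from separate embryos.

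Interferons are secreted proteins that cells make when sensors meet foreign or misplaced nucleic acid. Type I interferon binds the receptor pair Ifnar1 and Ifnar2, the kinases Jak1 and Tyk2 phosphorylate STAT proteins, and these join Irf9 to form ISGF3, a complex that binds the interferon-stimulated response element (ISRE) of target genes. The targets include RNA-binding IFIT proteins, oligoadenylate synthetases and their relatives, the ubiquitin-like modifier Isg15, the membrane tether Bst2 and Irf7, which amplifies interferon production. Several of these genes are also transcribed at a low level without interferon, and neural progenitors are known for intrinsic expression of some of them.

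Part of the promoter window, 200 bases or 145 for Ifit1, is shown for the 3 genes whose expression differed (Ifit3, Ifi44 and Ifit2). The same is shown for 3 that carry an ISRE match without a called difference (Ifit1, Isg15 and Bst2). For Ifit2, only the first of its annotated starts is shown. Sequences are from RefSeq on GRCm38.p6, the build of that table and not of the counts, and each ends at the base before the annotated start, written 5′ to 3′ on the gene's strand. Capitals mark matches to the ISRE core GAAANNGAAA on either strand, with overlapping matches merged.
Ifit3 (chr19:34583329-34583528, plus strand): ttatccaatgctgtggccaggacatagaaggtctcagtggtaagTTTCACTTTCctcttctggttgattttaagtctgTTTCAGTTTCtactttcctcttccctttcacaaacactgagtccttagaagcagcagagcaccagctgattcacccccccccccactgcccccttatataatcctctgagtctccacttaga
Ifit1 (chr19:34640744-34640888, plus strand): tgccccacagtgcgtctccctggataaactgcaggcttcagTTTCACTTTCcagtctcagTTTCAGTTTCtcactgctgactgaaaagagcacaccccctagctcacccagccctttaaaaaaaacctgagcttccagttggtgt
Isg15 (chr4:156200819-156201018, minus strand): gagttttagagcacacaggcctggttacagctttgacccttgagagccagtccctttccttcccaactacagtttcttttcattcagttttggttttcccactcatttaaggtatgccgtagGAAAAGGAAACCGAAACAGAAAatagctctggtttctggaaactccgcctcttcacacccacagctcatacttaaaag
Bst2 (chr8:71537473-71537672, minus strand): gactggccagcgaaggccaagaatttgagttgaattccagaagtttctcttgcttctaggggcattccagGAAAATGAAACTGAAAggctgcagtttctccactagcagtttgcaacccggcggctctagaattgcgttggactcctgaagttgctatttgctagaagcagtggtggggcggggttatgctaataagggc
Ifit2 (chr19:34550494-34550693, plus strand): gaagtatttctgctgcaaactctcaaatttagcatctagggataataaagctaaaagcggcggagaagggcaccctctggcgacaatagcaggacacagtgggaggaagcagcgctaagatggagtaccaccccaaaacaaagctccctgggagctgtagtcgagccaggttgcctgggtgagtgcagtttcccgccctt
Ifi44 (chr3:151749911-151750110, minus strand): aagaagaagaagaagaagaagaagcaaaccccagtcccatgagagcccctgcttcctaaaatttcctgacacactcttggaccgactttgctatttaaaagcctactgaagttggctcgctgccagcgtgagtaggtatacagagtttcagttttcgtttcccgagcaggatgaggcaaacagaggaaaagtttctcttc

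An ISRE match stood in the window of 250 bases before to 50 bases after the start for 4 of the 9 members, against 3.99% of the 27025 genes of the promoter table and 3.44% of its 32851 windows. Of 119 other interferon-pathway genes in it, grouped by role below, 48 (40.3%) held a match, so a match is not particular to the members. Ifit3, at 156 and 122 bases before its start, and Ifit1, at 104 and 85 bases, each held the same pair of matches, TTTCACTTTC followed by TTTCAGTTTC. Isg15 held 3 overlapping matches that begin 78, 72 and 66 bases before the start, and Bst2 held 2, at 130 and 124 bases. No exact match was found in the windows of Ifit2, Ifi44, Oasl2, Irf7 or Irf9, where Ifit2 and Irf9 each had 2 annotated starts in RefSeq. GENCODE M21 lists 11 starts for Irf7, 9 for Oasl2, 7 for Irf9 and 4 for Ifi44. Only windows at RefSeq starts were searched, so a match at another start of these genes would be missed. The GAS element, best known from the interferon gamma response, was searched as TTCNNNGAA. It matched in Bst2, where it overlaps the first ISRE match, and in Ifit2, where the match is not contained in the stretch shown. It was held by 9.55% of all genes and by 26.9% of the 119 other interferon-pathway genes. A match describes letters in these windows and does not show binding.

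**Figure D1:**
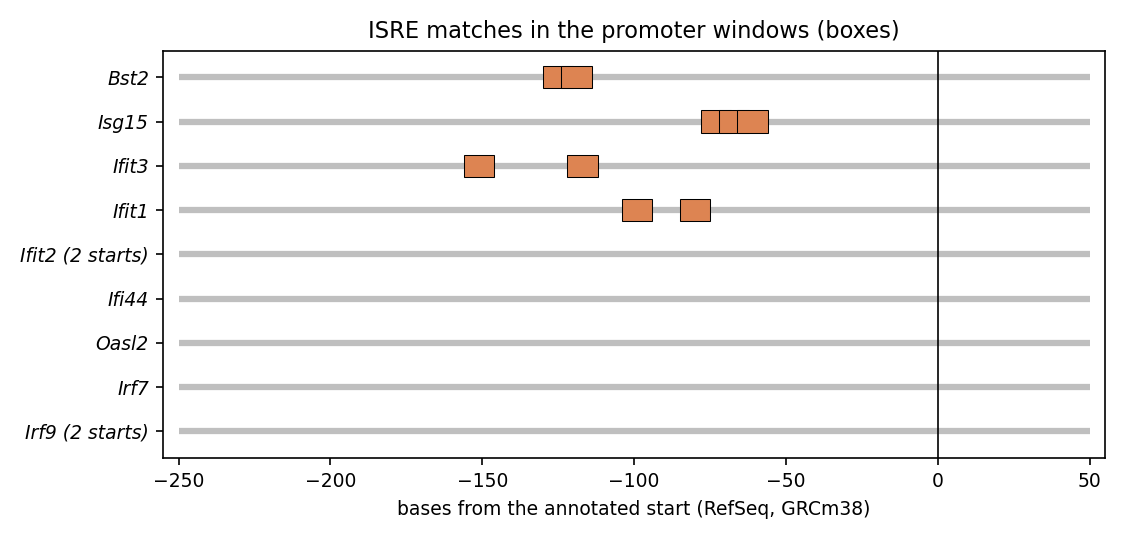
Positions of ISRE matches (boxes, each as long as the motif) in the promoter windows of the 9 members; the x axis gives bases from the annotated start. Bst2, Isg15, Ifit3 and Ifit1 hold matches between 156 and 66 bases before the start, and the other 5 members hold none in the windows at their RefSeq starts.

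Total counts were between 11081419 and 24339621 in the KO-labelled libraries and between 15343046 and 18189045 in the controls, so that 3 counts, the floor used here, stood for 0.126 to 0.261 CPM in the KO-labelled libraries and 0.163 to 0.194 CPM in the controls. CPM are counts scaled to the TMM-adjusted size of each library. Genes with any count numbered 19493 to 24381 in the KO-labelled libraries and 23621 to 27166 in the controls, and did not follow depth. KO-labelled 1 had the fewest, with 20457680 total counts. The part of this difference in the genes near the floor was not tested. Trp53bp1 had 27.1 ± 6.36 CPM in the KO-labelled libraries and 26.8 ± 0.349 CPM in the controls (SD, n = 4 each), so its level gave no check of the labels. Xist had 9 to 16 counts in the KO-labelled libraries and 23853 to 26134 counts in the controls, and the Y-linked Ddx3y had 579 to 1064 counts in the KO-labelled libraries and 0 in each control. Group and sex of the embryos therefore coincided, and differences by genotype and by sex cannot be told apart in any result here. All 12 progenitor and radial glial markers were detected in every library, with summed levels of 9602 to 12942 CPM in the KO-labelled libraries and 9984 to 12076 CPM in the controls. Most of this sum is Fabp7, with a log2 fold change of 0.04 (SE 0.13). Of the 12 markers, 6 were higher and 3 lower at the threshold given below, or 75% beside 30.0% over all genes tested. Among them, Msi1 (0.87, SE 0.14), Sox2 (0.78, SE 0.10), Pax6 (0.50, SE 0.13) and Notch1 (0.50, SE 0.12) were higher, and Nes (-0.90, SE 0.13) and Prom1 (-0.63, SE 0.18) were lower. The part of these markers in the members' results was not tested.

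The members moved in mixed directions. Ifit3 and Ifi44 were higher in the KO-labelled libraries, Ifit2 was lower, and 4 tested members (Bst2, Irf9, Oasl2 and Isg15) did not pass the threshold. Ifit1 and Irf7 had too few counts for the filter of the test. Of 15021 genes fitted with edgeR (quasi-likelihood test, Benjamini-Hochberg adjusted p under 0.05), 30.0% passed, 16.1% higher and 13.9% lower in the KO-labelled libraries. With 3 of 7 members called, 2 higher and 1 lower, the share is read against that background and rests on few genes. The median log2 fold change was 0.23 over the 7 tested members and 0.00 over all genes tested.

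**Figure D2:**
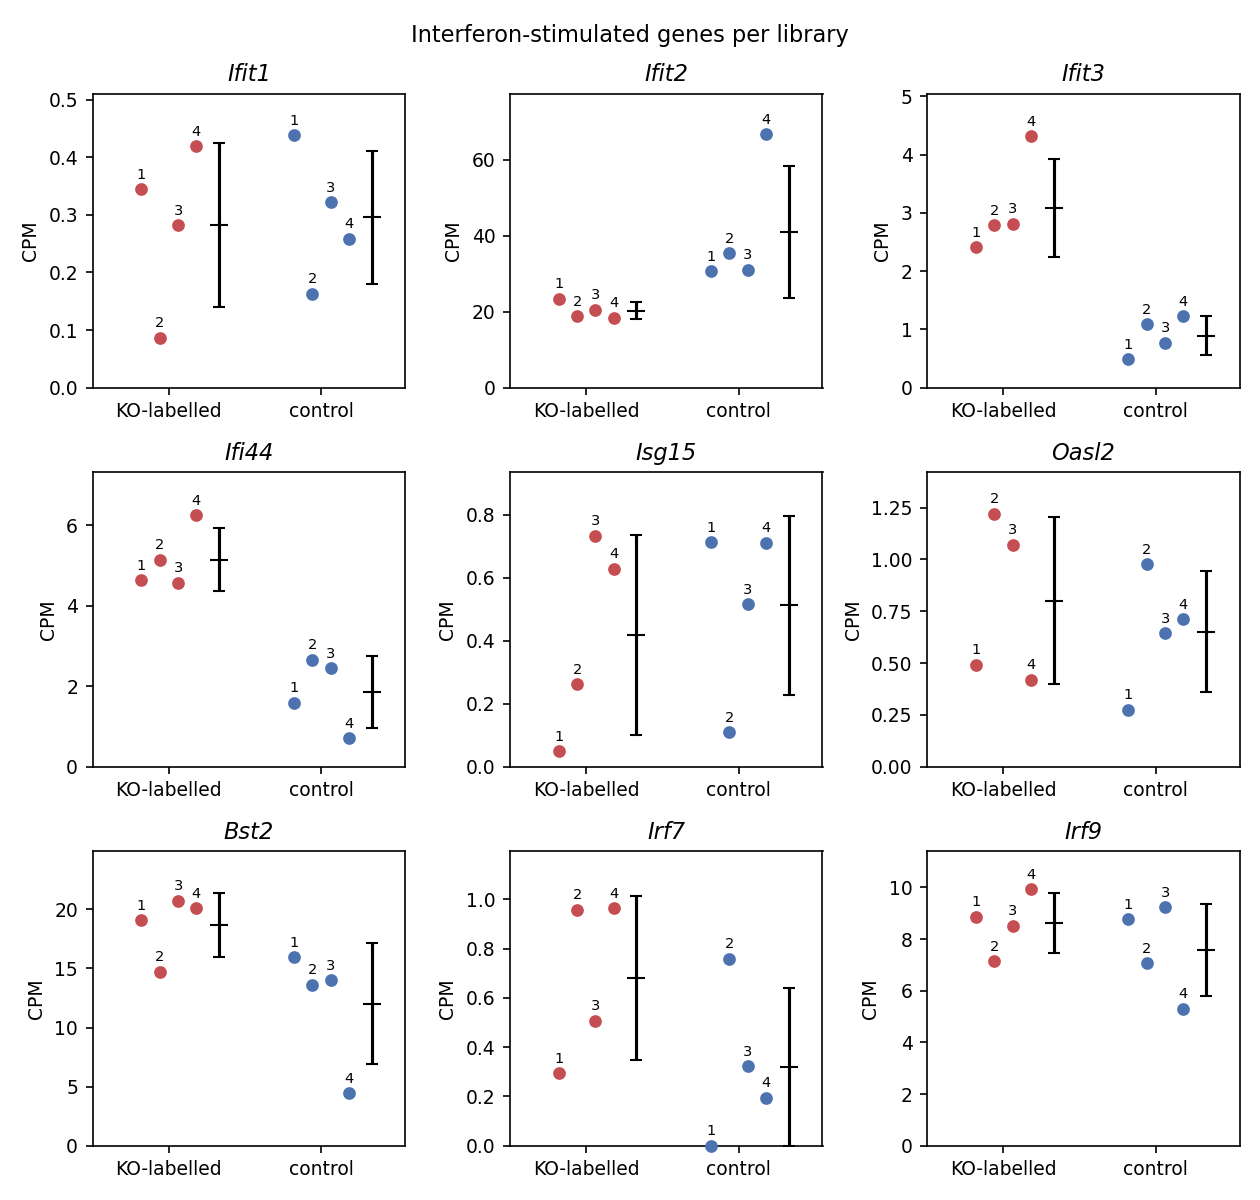
Normalised read counts (CPM) of the 9 members in each KO-labelled library (red, left) and each control (blue, right), numbered by replicate, with mean and SD in black. The groups do not overlap for Ifit2, Ifit3 and Ifi44, and control 4 is the highest control for Ifit2 (66.7 CPM) and the lowest for Bst2 (4.46 CPM).

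Ifit3, an IFIT protein that in human cells stabilises the binding of IFIT1 to non-self RNA caps, had 49, 32, 50 and 103 counts in KO-labelled libraries 1 to 4, against 9, 20, 12 and 19 counts in controls 1 to 4. In CPM, these were 2.41, 2.79, 2.82 and 4.32 in the KO-labelled libraries and 0.493, 1.09, 0.774 and 1.23 in the controls. Every KO-labelled library lay above every control, and KO-labelled 4 was the highest of all. The difference was 3.47-fold, a log2 fold change of 1.80 (SE 0.31, 95% interval 1.13 to 2.46, adjusted p = 0.000616 by edgeR). Ifit3 has a near copy, Ifit3b: 51.2% of the 50-base stretches of the Ifit3 transcript also occur in Ifit3b, so its count depends on how shared reads were treated, which is not given in the sources used here. Ifit3b itself had 32 counts in the KO-labelled libraries together and 17 in the controls, too few for the test.

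Ifi44, a cytoplasmic interferon-induced protein, had 94, 59, 81 and 149 counts in KO-labelled libraries 1 to 4 and 29, 49, 38 and 11 counts in controls 1 to 4. Its levels were 4.63, 5.14, 4.57 and 6.25 CPM in the KO-labelled libraries and 1.59, 2.66, 2.45 and 0.711 CPM in the controls. The groups did not overlap, and control 4 was the lowest library. Ifi44 was 2.76-fold higher in the KO-labelled libraries (log2 fold change 1.46, SE 0.29, 95% interval 0.84 to 2.08, adjusted p = 0.00161 by edgeR). Its neighbour and relative Ifi44l, with a mean of 0.215 CPM in the KO-labelled libraries and 0.0867 CPM in the controls, was not tested.

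Ifit2, an IFIT protein that binds AU-rich RNA in human cells, had the most counts of any member in the controls and moved the other way. It had 477, 216, 364 and 440 counts in KO-labelled libraries 1 to 4, against 560, 651, 481 and 1032 counts in controls 1 to 4. These were 23.5, 18.8, 20.5 and 18.5 CPM in the KO-labelled libraries and 30.7, 35.3, 31.0 and 66.7 CPM in the controls. The groups did not overlap, the KO-labelled libraries lay close together, and control 4 stood above the other 3 controls. The level was 2.01-fold lower in the KO-labelled libraries (log2 fold change -1.01, SE 0.21, 95% interval -1.46 to -0.55, adjusted p = 0.00253 by edgeR), and -0.68 without control 4 (adjusted p = 0.000191 by edgeR). No 50-base stretch of Ifit2 transcripts occurs in another annotated gene. Among the 15021 genes tested, the groups did not overlap for 29.9%, as they did not for these 3 members.

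Ifit1, Ifit2 and Ifit3 lie in 1 cluster on chromosome 19, where Ifit2 and Ifit3 are nearest neighbours on the same strand, and yet the called differences of the pair had opposite signs. Ifit1, which binds RNA caps that lack 2′-O methylation, had 7, 1, 5 and 10 counts in KO-labelled libraries 1 to 4 and 8, 3, 5 and 4 counts in controls 1 to 4. Its means of 0.283 ± 0.142 CPM in the KO-labelled libraries and 0.296 ± 0.116 CPM in the controls (SD, n = 4 each) lay near the floor, and an exact permutation test of the means, two-sided, gave p = 0.943, where 0.0286 is the smallest p that 4 against 4 allows. A difference in Ifit1 was not detectable at this depth. The genes that flank the cluster did not pass the threshold: Lipa, a lysosomal lipase, had a log2 fold change of 0.41 (SE 0.24) and the transporter Slc16a12 one of -0.33 (SE 0.26).

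**Figure D3:**
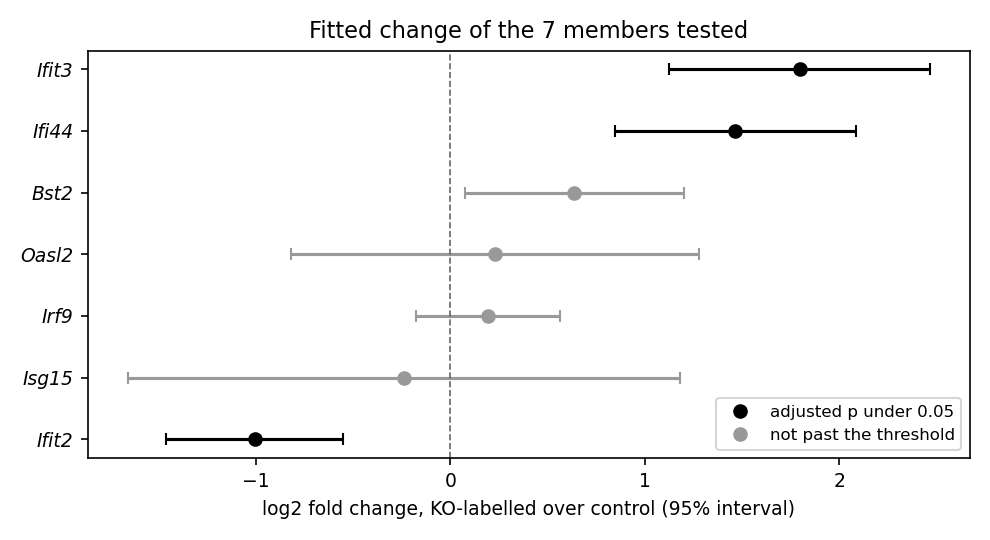
Log2 fold change, KO-labelled over control, with 95% intervals for the 7 members tested; black marks an adjusted p under 0.05 by edgeR and grey the rest. Ifit3 (1.80) and Ifi44 (1.46) are higher, Ifit2 (-1.01) is lower, and the intervals of Isg15 and Oasl2 are the widest.

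Bst2, or tetherin, which holds enveloped virus particles at the cell surface, had 388, 169, 368 and 480 counts in KO-labelled libraries 1 to 4 and 291, 251, 217 and 69 counts in controls 1 to 4. Its levels were 19.1, 14.7, 20.7 and 20.1 CPM in the KO-labelled libraries and 15.95, 13.6, 14.0 and 4.46 CPM in the controls. The groups overlapped between KO-labelled 2 and control 1, and control 4 lay far below the other controls. The log2 fold change was 0.64 (SE 0.26, 95% interval 0.07 to 1.20) and missed the threshold (adjusted p = 0.083 by edgeR). Without control 4 it was smaller but passed, at 0.36 (adjusted p = 0.0429 by edgeR). Next to Bst2, the gene Mvb12a, of the ESCRT sorting machinery, was higher (0.45, SE 0.15, adjusted p = 0.0367 by edgeR), and Plvap had a log2 fold change of 0.07 (SE 0.15).

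Irf9, the DNA-binding subunit of ISGF3, had 180, 82, 151 and 237 counts in KO-labelled libraries 1 to 4 and 160, 130, 143 and 82 counts in controls 1 to 4. Its levels of 8.61 ± 1.15 CPM in the KO-labelled libraries and 7.59 ± 1.79 CPM in the controls (SD, n = 4 each) overlapped, with control 4 the lowest library at 5.30 CPM. The log2 fold change was 0.19 (SE 0.17, 95% interval -0.18 to 0.56), an interval that leaves out a change of 2-fold in either direction. Irf9 overlaps the end of Rnf31 on the same strand, so a few reads may be shared, and Rnf31 had a log2 fold change of 0.16 (SE 0.20).

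The remaining 3 members were near the limit of detection. Isg15 had 1, 3, 13 and 15 counts in KO-labelled libraries 1 to 4 and 13, 2, 8 and 11 counts in controls 1 to 4, with a log2 fold change of -0.24 (SE 0.66, 95% interval -1.66 to 1.18). Libraries of both groups ran from below the floor upwards, with highest values of 0.733 CPM in KO-labelled 3 and 0.713 CPM in control 1. Oasl2, a relative of the oligoadenylate synthetases with ubiquitin-like domains, had 10, 14, 19 and 10 counts in KO-labelled libraries 1 to 4 and 5, 18, 10 and 11 counts in controls 1 to 4 (0.23, SE 0.49, 95% interval -0.82 to 1.28). Irf7 had 6, 11, 9 and 23 counts in KO-labelled libraries 1 to 4 and 0, 14, 5 and 3 counts in controls 1 to 4. Its means were 0.681 ± 0.335 CPM in the KO-labelled libraries and 0.319 ± 0.322 CPM in the controls (SD, n = 4 each), the groups overlapped, and the exact permutation test, two-sided, gave p = 0.171. With 1 library left out, the log2 ratio of these means, 1.09, lay between 0.67 without control 1 and 1.98 without control 2. The exact permutation test gave p = 0.343 without control 1 and p = 0.0857 without control 2. Part of Irf7 overlaps Phrf1 on the opposite strand, which had a log2 fold change of -0.21 (SE 0.12). These intervals are wide enough to hold changes of 1.5-fold in either direction for Isg15 and Oasl2.

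The nearest genes of these members are given for the setting of each locus. Both neighbours of Isg15 were higher, Agrn, which encodes the proteoglycan agrin, at a log2 fold change of 0.49 with an SE of 0.12 (adjusted p = 0.00773 by edgeR), and AW011738 at 0.52 with an SE of 0.15 (adjusted p = 0.0156 by edgeR). Beside Irf9, Psme2 (0.20) and Rec8 (0.99, adjusted p = 0.0843 by edgeR) did not pass, and beside Irf7, Rassf7 (-0.89, adjusted p = 0.0663 by edgeR) did not pass. Rec8 had 1.23 CPM in control 4, 13.5 to 15.5 CPM in the other controls and 18.7 to 28.5 CPM in the KO-labelled libraries. Cdhr5 beside Irf7, Oasl1 and 4930519G04Rik beside Oasl2, Adgrl4 beside Ifi44 and Ifit1bl1 beside Ifit3 had too few counts for the test.

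Exon length was taken over all GENCODE M21 transcripts of a gene, merged, so it can exceed the length of 1 mRNA. It was 5.386 kb for Irf9 with 7 transcripts and 6.374 kb for Oasl2 with 9, against 1.745 kb for Ifit3 with 1. The order of the members may depend on this choice, which was not tested. Set against this exon length, Bst2 was the most abundant member in the KO-labelled libraries, with 20.7 ± 3.01 CPM per kb. Ifit2 followed with 5.17 ± 0.583 CPM per kb, and these 2 did not overlap with each other or with any other member there. Ifit3 (1.77 ± 0.483) and Irf9 (1.60 ± 0.214) overlapped each other, Ifi44 (0.839 ± 0.127) overlapped Isg15 (0.553 ± 0.421), and Irf7, Oasl2 and Ifit1 were between 0.180 and 0.107 CPM per kb on average, with overlapping ranges. In the controls Bst2 (13.3 ± 5.68 CPM per kb) and Ifit2 (10.4 ± 4.41 CPM per kb) overlapped, followed by Irf9 (1.41 ± 0.332), Isg15 (0.677 ± 0.376), Ifit3 (0.513 ± 0.188) and Ifi44 (0.302 ± 0.145). Irf9 there lay above Isg15 in every library, whereas Isg15, Ifit3 and Ifi44 each overlapped the next in order. Ifit1, Oasl2 and Irf7 averaged between 0.111 and 0.0845 CPM per kb in the controls.

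Among the genes upstream of the members, the ligands were near the limit of detection and 1 receptor or kinase gene was called. None of the 21 interferon ligand genes could be tested: together they had 49 counts in the KO-labelled libraries and 56 in the controls, and Ifnb1, interferon beta, had 3 counts in each group. The ligand genes with the highest mean CPM were Ifnab, with 5 counts in the KO-labelled libraries and 16 in the controls, and Ifna2, with 10 in the KO-labelled libraries and 4 in the controls. Of 9 receptor and JAK-STAT genes tested, 1 passed (11.1%, beside 30.0% over all genes tested), the kinase Jak2, which was lower at 25.8 ± 4.15 CPM in the KO-labelled libraries and 36.0 ± 5.59 CPM in the controls (log2 fold change -0.48 with an SE of 0.14, adjusted p = 0.0163 by edgeR). Jak2 serves the interferon gamma receptor. The receptor chains Ifnar1 (0.10, SE 0.08), Ifngr1 (0.00, SE 0.10) and Ifngr2 (0.23, SE 0.10) did not pass. Nor did the chains Ifnar2 (-0.41, SE 0.24) and Il10rb (-0.65, SE 0.28), or the transcription factor Stat2 (-0.19, SE 0.23). The median log2 fold change of the 9 genes was 0.00.

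Of 15 genes of nucleic acid sensing tested, 1 was higher and 2 were lower, with a median of -0.19. The share called was 20%, beside 30.0% over all genes tested. Ifih1, the sensor of long double-stranded RNA also called Mda5, had 3.67 ± 0.195 CPM in the KO-labelled libraries and 2.47 ± 0.345 CPM in the controls (0.56, SE 0.19, adjusted p = 0.0346 by edgeR). Dhx58, its regulator also called Lgp2, was lower at 1.23 ± 0.124 CPM in the KO-labelled libraries and 2.17 ± 0.165 CPM in the controls (-0.83, SE 0.25). Ikbke, a kinase that phosphorylates Irf3 and Irf7, was lower at 1.13 ± 0.314 CPM in the KO-labelled libraries and 3.37 ± 0.870 CPM in the controls (-1.61, SE 0.28, adjusted p = 0.000646 by edgeR). The related kinase Tbk1 had a log2 fold change of -0.22 (SE 0.17) and Irf3 one of -0.19 (SE 0.12), and neither passed.

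Of 4 genes of ISG15 conjugation tested, 1 was higher and 2 were lower, a count of few genes beside 30.0% called over all genes tested, and Isg15 itself was not called. Ube2l6, the conjugating enzyme, was lower, at 9.18 ± 2.46 CPM in the KO-labelled libraries and 18.4 ± 1.72 CPM in the controls (-0.99, SE 0.16, adjusted p = 0.000412 by edgeR). Herc6, the mouse ligase, was also lower (-0.51, SE 0.16), and Usp18, which removes Isg15 and restrains the receptor, was higher at 3.35 ± 1.00 CPM in the KO-labelled libraries and 1.62 ± 0.536 CPM in the controls (1.05, SE 0.29, adjusted p = 0.0134 by edgeR). Trim25, a ligase that also activates RNA sensing, did not pass (0.32, SE 0.26). It had 4.85 CPM in control 4, 15.0 to 17.2 CPM in the other controls and 15.2 to 17.7 CPM in the KO-labelled libraries. Of 14 IFIT and OAS relatives, 1 could be tested, Ifit1bl2 (-0.99, SE 0.59), and it did not pass (adjusted p = 0.232 by edgeR). Ifit1bl1, the next most abundant, had 27 counts in the KO-labelled libraries and 30 in the controls. The oligoadenylate synthetase genes had few counts, for example Oas2 with 5 in the KO-labelled libraries together and 16 in the controls.

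Of 41 other antiviral effector genes tested, 7 were higher and 4 lower, with a median of 0.09. That is 26.8% called, beside 30.0% over all genes tested. Tor3a, an interferon-responsive member of the torsin family, had the largest rise of the list, with 25.0 ± 2.44 CPM in the KO-labelled libraries and 8.24 ± 1.39 CPM in the controls (1.61, SE 0.13, adjusted p = 7.51e-07 by edgeR). Gbp9, a guanylate-binding protein (0.91, SE 0.20), the antiviral zinc finger protein Zc3hav1 (0.81, SE 0.10) and the RNA editing enzyme Adar (0.67, SE 0.10) were higher too. The membrane proteins Ifitm2 and Ifitm3, of one family, went opposite ways, Ifitm2 higher (0.59, SE 0.18) and Ifitm3 lower at 11.9 ± 2.49 CPM in the KO-labelled libraries and 24.5 ± 7.31 CPM in the controls (-1.04, SE 0.21, adjusted p = 0.00162 by edgeR). Pml, of nuclear bodies, was lower (-0.81, SE 0.20). Widely used markers of an interferon response had few counts in both groups: Mx1 had 12 counts in the KO-labelled libraries together and 15 in the controls, Rsad2 had 47 in the KO-labelled libraries and 40 in the controls, and Cxcl10 had 26 in the KO-labelled libraries and 38 in the controls.

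Of 9 negative regulators tested, 2 passed, both higher, or 22.2% beside 30.0% over all genes tested. Socs3, an inhibitor of JAK signalling, had 6.04 ± 0.858 CPM in the KO-labelled libraries and 3.04 ± 0.317 CPM in the controls (0.98, SE 0.17, adjusted p = 0.000585 by edgeR), and Irf2bp2, a corepressor of Irf2, had 205.5 ± 22.6 CPM in the KO-labelled libraries and 117.3 ± 15.4 CPM in the controls (0.81, SE 0.11). Over all 78 other interferon-pathway genes tested, 11 were higher and 9 lower, 25.6% in all, with a median log2 fold change of 0.00, beside 30.0% over all genes tested. Of the 365 genes tested with an ISRE match in a promoter window, 64 were higher and 39 lower, or 28.2%, with a median of 0.01.

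**Figure D4:**
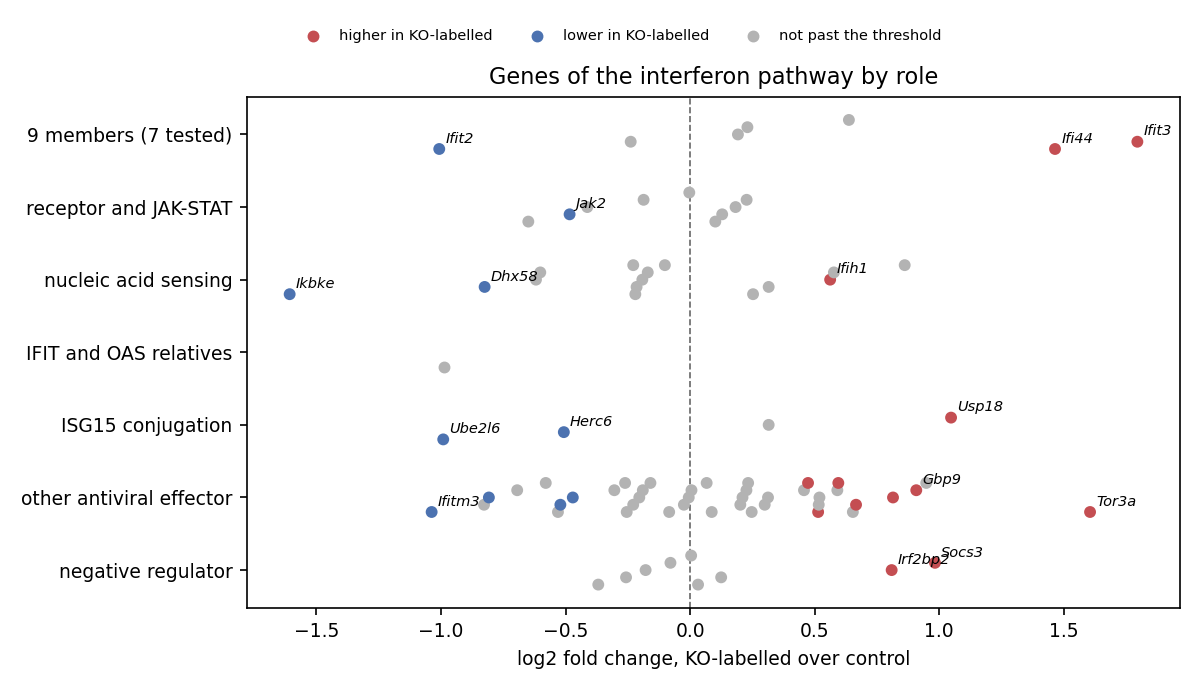
Log2 fold change, KO-labelled over control, of the tested members and of the other tested interferon-pathway genes by role; red marks genes higher and blue genes lower at an adjusted p under 0.05 by edgeR, and vertical offsets within a row only separate points. Called genes stand on both sides of 0 among the members, the sensing genes, the ISG15 enzymes and the antiviral effectors.

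Blood and vessel cells express several of these genes, so their markers are given beside the members. The 16 microglial and macrophage markers ranged in sum from 5.61 to 10.5 CPM in the KO-labelled libraries and from 7.56 to 15.2 CPM in the controls; 4 could be tested, and 1, Tmem119, was lower (-1.23, SE 0.40). The 12 endothelial markers ranged from 4.82 to 11.1 CPM in the KO-labelled libraries and from 11.6 to 19.1 CPM in the controls, without overlap. Of 5 tested, 2 were lower, Kdr (-1.44, SE 0.30) and Flt1 (-1.21, SE 0.32), and 3 were not called, among them Egfl7 (0.02, SE 0.39). Kdr (means of 2.45 CPM in the KO-labelled libraries and 6.54 CPM in the controls) and Flt1 (1.16 and 2.55 CPM) were the most abundant of the list. The summed difference therefore rests largely on these 2 genes. The 8 mesenchymal markers ranged from 28.1 to 41.1 CPM in the KO-labelled libraries and from 57.3 to 111.9 CPM in the controls, with control 4 the highest library. Of 7 tested, 4 were lower, Col3a1 (-2.09, SE 0.27), Col1a1 (-2.08, SE 0.38), Lum (-1.79, SE 0.27) and Pdgfra (-0.64, SE 0.16), and 1 was higher, Twist1 (2.49, SE 0.38). The shares called were 25% of the tested microglial and macrophage markers, 40% of the endothelial and 71.4% of the mesenchymal ones. Over all genes tested, 30.0% were called, and the groups did not overlap for 29.9%. The 7 erythroid markers used summed to at most 1.57 CPM in the KO-labelled libraries and 2.39 CPM in the controls, with Hba-a1 and Hba-a2 at 0 in every library and Hbb-bs at 0 in the controls. The 1 tested, Slc4a1 (-1.28, SE 0.66), did not pass, and Klf1 had 37 counts in the KO-labelled libraries and 27 in the controls. No marker of the other 3 lists was at 0 throughout a group. The called endothelial markers and 4 of the 5 called mesenchymal markers had the direction of Ifit2, Twist1 had that of Ifit3 and Ifi44, and their part in these results was not tested. In bulk RNA, fewer cells of a type and less RNA per cell cannot be told apart.

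The genes with the pattern most like each called member over the 8 libraries, by Pearson's r of log2 CPM, were Grk5 (0.99), Thsd1 (0.99) and Prpf31 (0.99) for Ifit2, Abcc4 (0.99), Lrig3 (0.98) and Sstr1 (0.98) for Ifit3, and Bmp3 (0.99), Nkiras1 (0.99) and Yes1 (0.99) for Ifi44. None of these 9 genes is on the interferon lists used here. The libraries are shared by all genes and fall into 2 groups, so these values are a description and carry no p.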

How the data were processed

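The deposited table holds whole-number counts of reads per gene, which the authors made from stranded, paired-end total RNA libraries; HTSeq 0.6.1p1, CASAVA and the builds NCBIM37 and mm9 appear in the submitters' processing notes. Aligner, strand setting and treatment of shared reads: not given in the sources used here. No column was left out. After filterByExpr, 15021 genes were scaled by TMM and fitted with edgeR 4.0.16 (quasi-likelihood, R 4.3.3), with a threshold of 0.05 on p-values adjusted by Benjamini and Hochberg over all of them; the SE is the log2 fold change divided by the square root of F. The fit was tested on simulated counts. Members under the filter had an exact permutation test of mean CPM. Libraries of a group differed by more than sampling noise (chi-square per degree of freedom from 4.45 to 36.2), so each counted as 1 replicate. With no label naming separate embryos, p-values measure library spread alone, which may be technical; intervals and floors cover counting error and that spread alone. Some pathway and marker genes are not reported here. The members and lists were chosen with earlier results of these data known. Named genes are the 9 members, the called genes of each list up to 6 by size (the 2 most abundant where none was called), the nearest genes on either side and the 3 most similar patterns; Ifnb1, Oas2, Mx1, Rsad2, Cxcl10, Ifit3b, Trim25, Egfl7, the globin genes, the uncalled receptor, STAT, IRF and kinase genes and Ifitm2 were chosen after their values were seen. Promoters, exon lengths, overlaps and chromosomes come from RefSeq (GRCm38.p6) and GENCODE M21 by symbol. Alternatives were RLE and upper-quartile scaling, leaving out the 5 most abundant genes, 2 other filters, DESeq2 1.42.0, limma voom 3.58.1, robust dispersion, a replicate block and each library left out.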

Additional observations from a re-analysis of the deposited data

Results flagged for a closer look

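Ifit2 in control 4, at 66.7 CPM, stood apart from the other 3 controls (30.7, 35.3 and 31.0 CPM): its gap to the nearest control was 0.871 of the range of the group, above Dixon's 95% critical value for 4 samples. It was 1 of 18 groups of 4 libraries examined for the 9 members, and chance flags about 1 in 20 groups. The same library was also the highest control for Ifit3, at 1.23 CPM, the lowest control for Ifi44, Irf9 and Bst2, and the highest for the summed mesenchymal and endothelial markers.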

How the results depend on the processing

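Ifit3, Ifi44 and Ifit2 kept their direction and their call under all 17 alternatives. Leaving out 1 library gave log2 fold changes of 1.57 to 1.97 for Ifit3, 1.20 to 1.69 for Ifi44 and -1.12 to -0.68 for Ifit2, the last without control 4. Bst2 missed the threshold under 13 alternatives and passed under 4: without a filter on low counts (0.70), with limma voom (0.56), with the replicate block (0.72, adjusted p = 0.0381 by edgeR) and without control 4 (0.36); over all alternatives its adjusted p ran from 2e-05 to 0.229. The uncalled direction of Ifit1 turned without a filter (0.0587) and, leaving out 1 library, lay between -0.32 and 0.23. That of Isg15 lay between -0.62 and 0.16, and that of Oasl2 between -0.0321 and 0.50, or -0.24 with limma voom. The log2 ratio of mean CPM of Irf7, 1.09, lay between 0.67 and 1.98, the highest without control 2. Members higher numbered 2 or 3 and lower 1 throughout. The 9 other interferon-pathway genes that were lower became 16 with limma voom; the cause was not tested. Leaving out 1 library gave 9 to 13 higher and 7 to 12 lower of them, 1753 to 2432 higher and 1497 to 2193 lower over all genes. The replicate numbers of the 2 groups share a number alone: deviations of same-numbered libraries correlated at 0.25, 0.28, -0.16 and 0.01, and the replicate block gave 3 members higher and 1 lower. Low counts limit Ifit1, Irf7, Isg15 and Oasl2.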
